A study of Homo sapiens with 18 samples.

Results

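The comparison described here is between PC3 cells given a mutant BC-box peptide and PC3 cells given a scrambled peptide. PC3 is an established human prostate cancer line. Each group has 3 RNA-seq libraries numbered 1 to 3, and libraries of the same number were treated as pairs. All genes with a mean normalised read count of at least 10 over the 9 peptide libraries were described, which gave 13105 genes of the 20365 in the table (17320 genes had a read in any of these libraries).

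Cells of all 3 peptide groups (scrambled, mutant and WT peptide) were exposed to 12500 nM peptide for 24 h in medium with 2.5% FCS, so every control library also received a peptide. There was no library of cells without peptide. Whether a gene was lowered by the mutant peptide or raised by the scrambled one therefore cannot be told apart. The remaining 9 libraries of the study come from PC3 cells that carried lentiviral shRNA and were grown with 10% FCS: the group EloB KD targets Elongin B, the group EloC KD targets Elongin C, and Control KD is their control. The labels do not say which residues differ between the peptides, nor whether replicates were separate cultures, so the p-values measure only the spread between these samples.

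Elongin B and Elongin C form a small adaptor complex. Proteins with a BC-box, a short helical motif found in VHL, in the SOCS-box family and in Elongin A, dock on Elongin C. The complex links such substrate receptors to Cullin 2 or Cullin 5 in ubiquitin ligases, and together with Elongin A it acts on RNA polymerase II during elongation. A BC-box peptide can occupy the docking surface, and a mutant form of it is commonly used as a control with an altered binding motif. The comparison addresses how far cells given the mutant form differ in their transcripts from cells given an unrelated order of residues.

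Of the gene lists described, that of NF-kB targets and cytokines had the most negative median change, and that of mitosis had the largest share of members called higher, by small amounts each. NF-kB is a family of transcription factors (RELA, RELB, REL and the products of NFKB1 and NFKB2) that binds kappaB sites in the promoters of chemokine and cytokine genes. Mitotic genes are commonly controlled through the cell cycle homology region (CHR) and CCAAT boxes close to the start site. The 120 bases upstream of the transcription start of 7 chemokine, cytokine and feedback genes that fell are shown because these genes fell with the mutant peptide and their windows hold a kappaB match. They are from RefSeq (GRCh38.p14), written 5′ to 3′ on the gene's strand, and capitals mark matches to GGGNNNTTCC or GGAATTTCC on either strand, which can overlap each other.
CXCL8 (chr4:73740449-73740568, plus strand): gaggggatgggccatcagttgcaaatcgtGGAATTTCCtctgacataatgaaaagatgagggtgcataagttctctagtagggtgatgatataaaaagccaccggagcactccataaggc
CXCL1 (chr4:73869273-73869392, plus strand): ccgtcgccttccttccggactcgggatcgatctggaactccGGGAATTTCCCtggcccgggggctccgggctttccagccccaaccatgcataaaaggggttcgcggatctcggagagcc
CXCL2 (chr4:74099196-74099315, minus strand): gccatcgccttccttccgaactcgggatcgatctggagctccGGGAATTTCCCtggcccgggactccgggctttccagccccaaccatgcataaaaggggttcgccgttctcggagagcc
CXCL3 (chr4:74038690-74038809, minus strand): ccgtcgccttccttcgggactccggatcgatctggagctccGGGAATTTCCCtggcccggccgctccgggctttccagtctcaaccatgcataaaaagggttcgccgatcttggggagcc
IL6 (chr7:22727080-22727199, plus strand): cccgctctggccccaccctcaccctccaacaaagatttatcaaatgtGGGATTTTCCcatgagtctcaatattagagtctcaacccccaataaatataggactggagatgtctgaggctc
TNFAIP3 (chr6:137867139-137867258, plus strand): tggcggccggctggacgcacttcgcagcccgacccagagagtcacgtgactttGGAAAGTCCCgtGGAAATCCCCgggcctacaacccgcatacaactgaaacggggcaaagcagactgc
IL32 (chr16:3065283-3065402, plus strand): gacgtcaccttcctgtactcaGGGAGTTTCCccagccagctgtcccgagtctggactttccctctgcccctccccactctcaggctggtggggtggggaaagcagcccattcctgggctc

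The match begins 91 bases before the start of CXCL8, 79 bases before CXCL1 and CXCL3 and 78 before CXCL2. The windows of CXCL1, CXCL2 and CXCL3, neighbours on chromosome 4, resemble each other over most of their length, so they are not independent examples. In a window of 250 upstream bases, either kappaB motif was present in 5.87% of the 35116 promoter entries of RefSeq and in 9.14% of the 10551 tested genes with an entry. It was present in 15.4% of the 460 genes with an entry that fell with the mutant peptide (adjusted p under 0.05 in limma). The share was 7.33% of the 409 that rose. Of the 18 tested members of the NF-kB list with an entry, 12 held it. Among the called members it was 10 of 15, a share that could hardly differ because most tested members were called. A match is a description of the letters in this window, and binding was not measured.

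For the genes that rose, the upstream 120 bases of 3 mitotic genes are shown because their windows hold both mitotic motifs. Capitals mark TTTGAA (the CHR) and CCAAT on either strand, and matches can overlap each other.
PLK1 (chr16:23678769-23678888, plus strand): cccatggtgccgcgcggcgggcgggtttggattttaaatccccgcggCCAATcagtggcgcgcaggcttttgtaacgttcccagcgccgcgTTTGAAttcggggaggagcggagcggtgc
CCNB2 (chr15:59105026-59105145, plus strand): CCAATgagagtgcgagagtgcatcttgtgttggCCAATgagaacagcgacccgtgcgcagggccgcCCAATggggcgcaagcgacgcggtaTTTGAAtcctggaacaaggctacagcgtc
HMMR (chr5:163460512-163460631, plus strand): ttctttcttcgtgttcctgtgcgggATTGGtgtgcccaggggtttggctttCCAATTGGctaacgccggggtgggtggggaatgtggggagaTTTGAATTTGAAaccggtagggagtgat

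TTTGAA lies 29 bases before the start of PLK1 and of CCNB2, and HMMR has a match at 28 and at 22 bases. Within 250 upstream bases TTTGAA was present in 13.3% of all entries, in 12.3% of tested genes, in 22.2% of genes that rose and in 10.2% of genes that fell. CCAAT was present in 32.0% of all entries, in 41.9% of tested genes, in 57.2% of genes that rose and in 40.2% of genes that fell. Among the 31 tested mitosis genes with an entry, 18 held TTTGAA and 27 held CCAAT. Among the 28 of them that were called, 16 and 24 did. Because most tested members were called, these shares could hardly differ, and nothing is read from their likeness.

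Between 31671205 and 34699856 reads were counted per peptide library, and 13054 to 13252 genes had at least 10 reads. Mitochondrially encoded genes took 3.32% to 4.82% of the reads. The first principal component (44.0% of the variance) set the 3 libraries numbered 2 apart from the others in every group. In all 9 peptide libraries KLK2, KLK3 and FOLH1, markers of androgen-responsive prostate cells, were at 0. The epithelial and mesenchymal markers KRT8, KRT18, KRT19, EPCAM, VIM and CD44 were detected throughout, as known of PC3.

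When the fit included a term for the replicate number (the block), 1088 genes were called, which is 8.30% of those tested. A gene is called here if its p from limma, adjusted by Benjamini-Hochberg over the tested genes, is under 0.05. Of these, 487 rose (3.72%) and 601 fell (4.59%) with the mutant peptide. Most changes were small. The median absolute log2 fold change was 0.210 among called genes and 0.0686 among all genes, 64 called genes changed at least 1.5-fold (19 rose, 45 fell) and 21 at least 2-fold (4 rose, 17 fell). All 3 pairs had the same direction for 1086 of the called genes, and the groups did not overlap for 657, of 1792 genes without overlap among all tested. Every call depends on the block: without it limma called 0 genes, with 1142 at an unadjusted p under 0.05 (edgeR without the block called 0, with 1123), against 2965 at an unadjusted p under 0.05 with it. With the block but without limma's intensity trend, which lets the spread vary with the level, 1 gene was called. The libraries numbered 2 also carried many of the calls, since 209 genes were called without them and 342 without Scrambled peptide 2 alone. Leaving out Mutant peptide 1, Mutant peptide 2 or Scrambled peptide 3 gave 562, 673 and 499 calls.

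**Figure D1:**
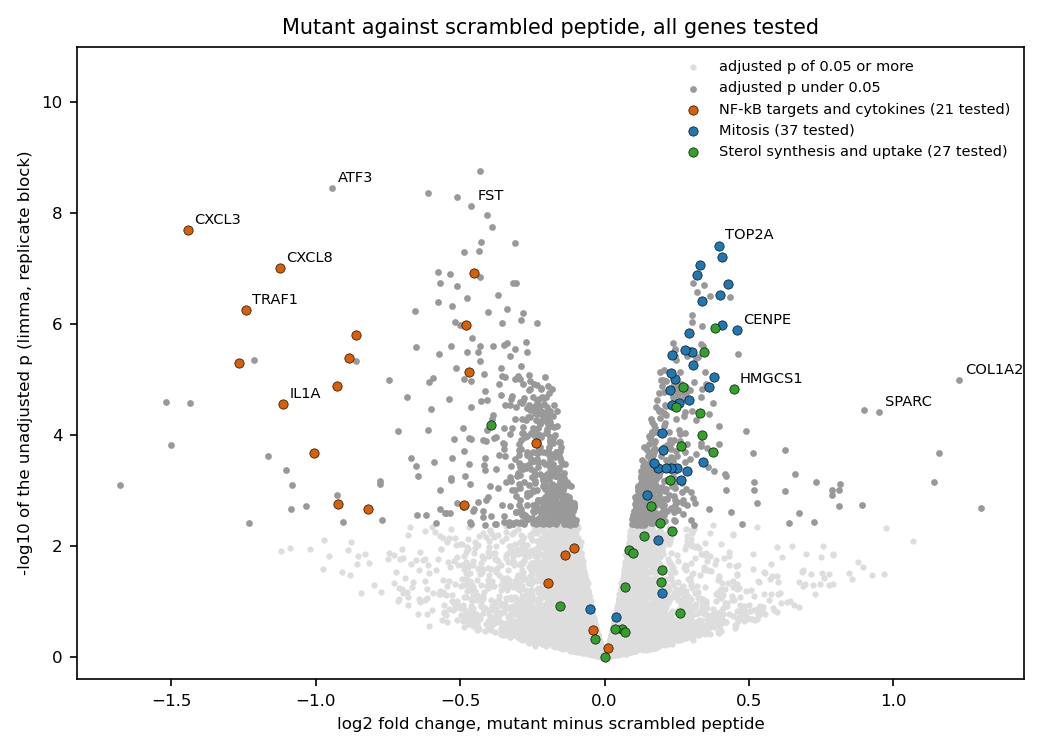
Log2 fold change of the mutant against the scrambled peptide (x axis) and -log10 of the unadjusted p (y axis) for all 13105 genes tested, with 3 gene lists coloured. The 16 called members of the NF-kB list lie on the left and the 33 called mitosis genes on the right, with smaller fold changes.

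Transcripts of the Elongin subunits themselves did not pass the test. ELOB, the Elongin B gene, had 3465, 3619 and 3802 normalised counts with the scrambled and 3762, 3728 and 3520 with the mutant peptide. The log2 fold change was 0.02 for ELOB (adjusted p = 0.85), 0.05 for ELOC (adjusted p = 0.41) and -0.05 for ELOA (adjusted p = 0.33), with overlapping groups in each case. None of 14 subunits of the Elongin and Cullin core was called, where 8.30% of all genes were called and 4.59% fell. Of 34 measured BC-box substrate receptors, 4 were called and all fell: SOCS3, a feedback inhibitor of cytokine receptors, by 0.22, the SOCS-box proteins SPSB1 and ASB6 by 0.20 and 0.13, and VHL, the receptor for hypoxia-inducible factors, by 0.12 on the log2 scale. None of these 4 was called without Scrambled peptide 2, and each lost the call in at least 4 of the 6 fits that left out 1 library. HIF target genes, which VHL restrains, gave 1 call of 27 (ADM fell by 0.32). Of the 6 fits that left out 1 library, only that without Mutant peptide 1 kept the call of ADM.

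The inflammatory list had the lowest median of the lists. Of 21 measured members of the list of NF-kB targets and cytokines, 16 fell and none rose, where 4.59% of all genes fell. The list's median log2 fold change was -0.82, against -0.00098 over all genes. Within pairs its median was -0.71, -0.38 and -0.78, so the pair numbered 2 moved least. The list's count lay between 12 and 16 when any library or any replicate number was left out. Without the block, as everywhere, 0 members were called.

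Among the chemokines, ligands that attract neutrophils through CXCR2, CXCL3 had 361, 176 and 262 normalised counts with the scrambled peptide and 113, 84.7 and 85.1 with the mutant. All mutant libraries lay below all scrambled libraries, and CXCL3 was 2.72-fold lower (log2 -1.44 ± 0.13 SE, adjusted p = 3.3e-05). CXCL2 fell from 339, 139 and 228 to 112, 77.9 and 87.1 (log2 -1.26 ± 0.18, adjusted p = 0.00071). CXCL8, the interleukin-8 gene and the most abundant of the 4 in counts, had 4751, 2243 and 3462 with the scrambled and 1685, 1414 and 1499 with the mutant peptide. Its fold change was 2.18 (log2 -1.12 ± 0.11, adjusted p = 8.0e-05), and again the groups were apart. CXCL1 was lower by 0.82 on the log2 scale (adjusted p = 0.034), but its call was lost in 4 of the 6 fits without 1 library (replicate 1 or 3 of either peptide, adjusted p up to 0.19) and without all libraries numbered 1 or 3.

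In the 3 chemokines CXCL8, CXCL2 and CXCL3 the scrambled libraries were spread widely, in the order 1, 3, 2, while the mutant libraries lay close together. The scrambled library numbered 2 was therefore nearest to the mutant ones. Leaving out any 1 library left all 3 called.

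The cytokines behaved alike in direction. IL1A, an interleukin-1 released by damaged epithelial cells, went from 221, 110 and 142 to 70.3, 65.4 and 72.6 normalised counts (log2 -1.11 ± 0.18, adjusted p = 0.0019). IL1B, the secreted interleukin-1, went from 5298, 4855 and 4679 to 3858, 3352 and 3637 (log2 -0.45 ± 0.05, adjusted p = 8.4e-05), a smaller change with little spread. IL32 fell by 0.93 (adjusted p = 0.0013), IL6 by 1.01 (adjusted p = 0.0072) and CSF2, which encodes GM-CSF, by 0.92 on the log2 scale (adjusted p = 0.030), the last from 80, 38.4 and 54.2 to 24.5, 29.8 and 31.9. LIF, a cytokine of the interleukin-6 family, was not called (log2 -0.10, adjusted p = 0.090).

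Some members of the NF-kB pathway itself also fell. RELB, the transcription factor subunit of the non-canonical branch, had 453, 339 and 385 normalised counts with the scrambled and 202, 241 and 192 with the mutant peptide (log2 -0.89 ± 0.12, adjusted p = 0.00062). NFKB2, the precursor of its partner p52, fell by 0.48 (adjusted p = 0.00027). Negative feedback genes fell too: TNFAIP3, the ubiquitin-editing enzyme A20, went from 454, 345 and 344 to 223, 237 and 168 (log2 -0.86 ± 0.11, adjusted p = 0.00037), and NFKBIA, the inhibitor IkB-alpha, fell by 0.24 (adjusted p = 0.0055). TRAF1, a signalling adaptor of TNF receptors, fell from 278, 115 and 175 to 94.8, 53.9 and 81.3 (log2 -1.24 ± 0.15, adjusted p = 0.00019). BIRC3, an inhibitor of apoptosis that works with TRAF proteins, fell by 0.49 (adjusted p = 0.030) with overlapping groups, and was no longer called without replicate 1 or 3 of either peptide (adjusted p up to 0.18). NFKB1 and ICAM1 did not pass the test (log2 -0.04 and -0.14, adjusted p = 0.60 and 0.11).

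**Figure D2:**
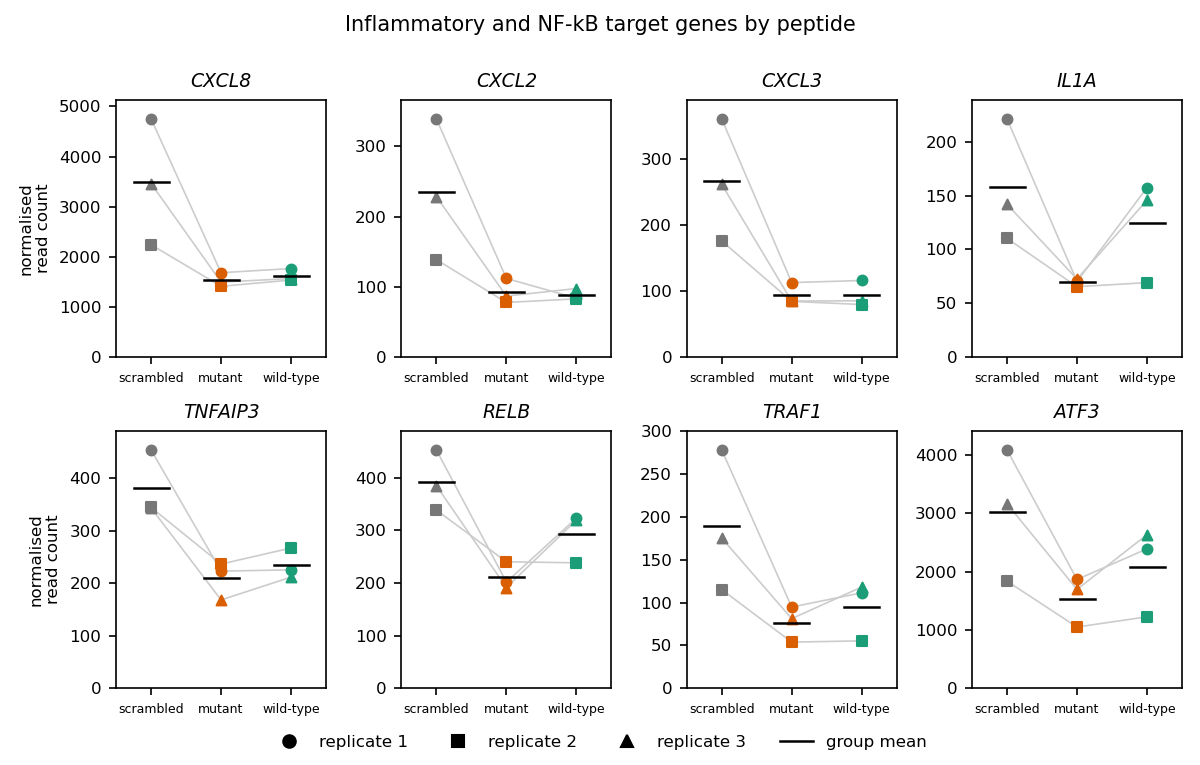
Normalised read count (y axis, linear, from 0) of 8 inflammatory and stress genes in each scrambled, mutant and wild-type peptide library. Symbols give the replicate number, grey lines join libraries of the same number and bars are group means. In 7 of the panels every mutant library lies below every scrambled one; in ATF3 the groups overlap but each pair falls.

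Immediate early genes are those that cells switch on within minutes to hours of a stimulus. Of 25 measured, 11 fell and none rose, where 4.59% of all genes fell. The median log2 fold change was -0.20, and 6 were called without Scrambled peptide 3 or without the libraries numbered 2. ATF3, a stress-induced transcription factor, had 4090, 1838 and 3165 normalised counts with the scrambled and 1868, 1052 and 1697 with the mutant peptide. The groups overlap, because library 2 is low under both peptides, but each pair fell, and the log2 fold change was -0.94 ± 0.07 (adjusted p = 1.6e-05). KLF6 fell by 0.28 (adjusted p = 0.00020) and KLF4 by 0.30 (adjusted p = 0.0011). Of the AP-1 subunits, JUNB fell by 0.46, JUN by 0.20, FOSL2 by 0.20 and FOSL1 by 0.15, while FOS was not called (log2 -0.17, adjusted p = 0.58). EGR1 had the lowest fold change of any called gene (log2 -1.68 ± 0.39, adjusted p = 0.018), on 14.8 to 20 counts with the scrambled and 2.04 to 7.70 with the mutant peptide, where counting error is large. ERK feedback genes, induced by the same growth factor signals, gave 4 lower calls of 17 (DUSP5, DUSP4, DUSP7 and SPRY2), none of which was called without the libraries numbered 2.

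Genes of mitosis rose together by a small amount. Of 37 measured, 33 rose and none fell, where 3.72% of all genes rose, with a median log2 fold change of 0.26 and called values between 0.15 and 0.46. Within pairs the median was 0.19, 0.36 and 0.26, so here the pair numbered 2 moved most. Without the libraries numbered 2, 18 members were called. In bulk RNA a larger share of cells in mitosis and more of these transcripts in each cell cannot be told apart.

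TOP2A, the topoisomerase that untangles chromosomes, had 12641, 10453 and 12073 normalised counts with the scrambled and 15540, 14999 and 15614 with the mutant peptide. The groups did not overlap (log2 0.40 ± 0.04, adjusted p = 4.5e-05). DLGAP5, a spindle protein, rose from 3409, 2815 and 3267 to 4348, 4055 and 4148 (log2 0.41 ± 0.04, adjusted p = 5.7e-05). CDK1, the kinase that drives entry into mitosis, rose from 9158, 7258 and 9044 to 11147, 9629 and 11155 (log2 0.33 ± 0.03, adjusted p = 7.5e-05). Its partners rose as well, CCNB1 by 0.38 and CCNB2 by 0.29 on the log2 scale. Among motors and kinetochore proteins, KIF4A rose by 0.32 (adjusted p = 8.4e-05), KIF14 by 0.43, KIF20A by 0.40, CENPF by 0.41 and CENPE by 0.46. The kinases PLK1 and AURKA rose by 0.31 and 0.28, and HMMR, a spindle-associated protein, by 0.34. FOXM1, the transcription factor of mitotic genes, rose by 0.23 (adjusted p = 0.0019). The members not called were CDC25B (-0.05), BUB3 (0.04), KIF18A (0.18) and PRC1 (0.20).

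The earlier phases of the cycle did not show the same counts, beside 3.72% of all genes that rose and 4.59% that fell. Of 38 genes of G1/S and DNA replication, 3 rose (RRM1 by 0.16, GINS1 by 0.15 and RRM2 by 0.13) and CCND1, the G1 cyclin D1, fell by 0.14. GINS1 and RRM2 each lost the call in 4 of the 6 fits without 1 library, and CCND1 in 3. That list's median was 0.02, and 0 of it was called without the libraries numbered 2. Of 16 histone genes, H1-2 fell from 2160, 2058 and 1906 to 1587, 1249 and 1452 (log2 -0.52 ± 0.06, adjusted p = 0.00026). H2BC5, H4C8, H2AC6 and H2BC21 fell by 0.32 to 0.47, and H2AZ1, a variant histone made throughout the cycle, rose by 0.19. In a library made from polyadenylated RNA, replication-dependent histone transcripts, which mostly lack a poly(A) tail, are captured only in part.

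Of 27 measured genes of sterol synthesis and uptake, 12 rose, 1 fell and 14 did not pass the test, where 3.72% of all genes rose. The list's median was 0.20, with medians within pairs of 0.17, 0.28 and 0.11. DHCR7, an enzyme of the last step to cholesterol, had 5419, 4990 and 4646 normalised counts with the scrambled and 6309, 6213 and 5625 with the mutant peptide. The groups did not overlap (log2 0.27 ± 0.04, adjusted p = 0.0013), and the call was lost without all libraries numbered 2 (adjusted p = 0.059). HMGCS1, an early enzyme of the pathway, rose by 0.45 ± 0.07 (adjusted p = 0.0014) with overlapping groups, and SQLE, squalene epoxidase, by 0.35 ± 0.05 (adjusted p = 0.00055). INSIG1, which holds SREBP in the endoplasmic reticulum and is itself an SREBP target, rose by 0.37 (adjusted p = 0.0071). The exporter ABCG1, a target of LXR, fell from 827, 674 and 943 to 679, 485 and 702 (log2 -0.39 ± 0.07, adjusted p = 0.0034). The count of higher members fell to 6 without Scrambled peptide 2 and to 3 without all libraries numbered 2. Of 19 fatty acid synthesis genes, 4 rose, led by ACACA, acetyl-CoA carboxylase, with 0.28 ± 0.05 (adjusted p = 0.0023). FASN did not pass the test (log2 0.05, adjusted p = 0.74).

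**Figure D3:**
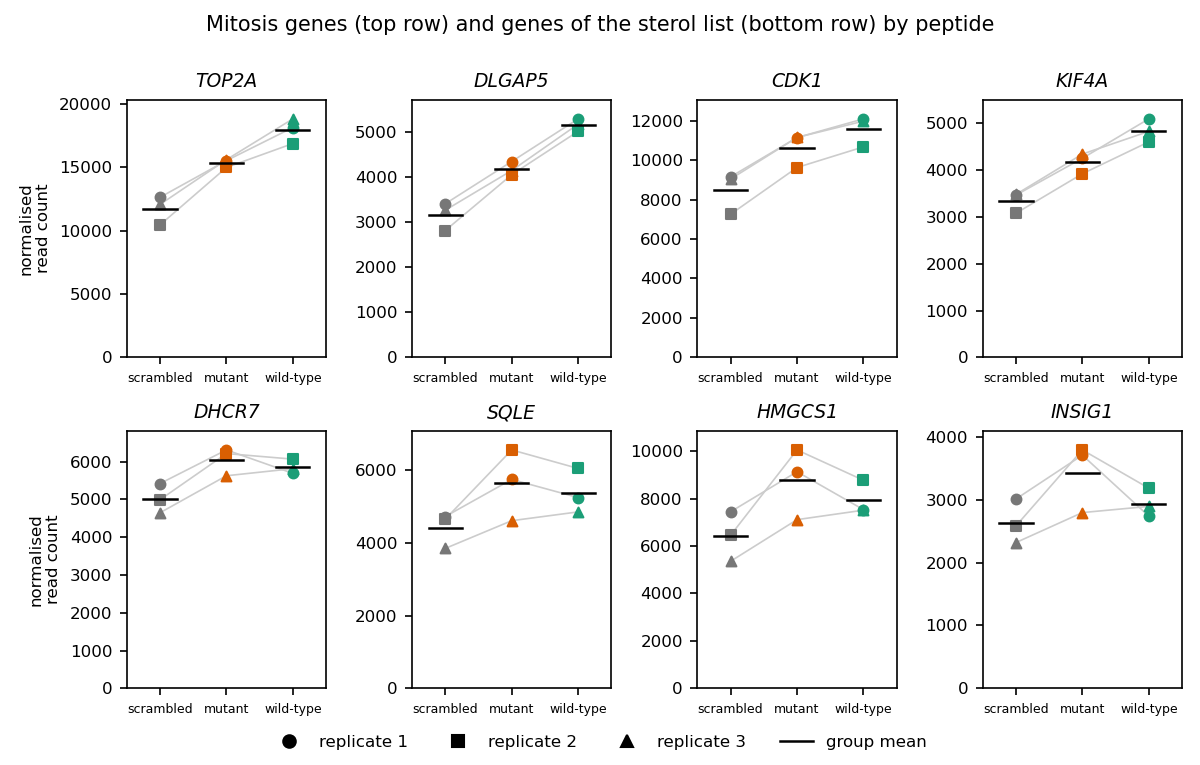
Normalised read count (y axis, linear, from 0) of 4 mitosis genes (top row) and 4 genes of the sterol list (bottom row) in each peptide library. Symbols give the replicate number, grey lines join libraries of the same number and bars are group means. The mitosis genes are lowest with the scrambled and highest with the wild-type peptide; the sterol genes are higher under both BC-box peptides than under the scrambled one in group mean.

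Some genes of attachment and of matrix turnover fell, while other matrix genes rose. Of 26 adhesion and junction genes 8 fell, of 20 YAP and TAZ targets 8 fell, and of 17 matrix proteases and inhibitors 6 fell and MMP1 rose by 0.25. Over all genes tested 4.59% fell and 3.72% rose. LAMB3, a chain of laminin-332 that anchors epithelial cells, had 8512, 7014 and 7725 normalised counts with the scrambled and 6723, 4738 and 5941 with the mutant peptide. No mutant library reached a scrambled one (log2 -0.43 ± 0.04, adjusted p = 4.5e-05). Of its integrin receptor chains, ITGA3 fell by 0.31 (adjusted p = 9.5e-05) and ITGB4 by 0.46 (adjusted p = 0.0011). The call of ITGB4 was lost without all libraries numbered 2 (adjusted p = 0.063 in limma). CPA4, a secreted carboxypeptidase, went from 447, 433 and 432 to 301, 252 and 319 (log2 -0.60 ± 0.09, adjusted p = 0.0011). PLAT, the tissue plasminogen activator, fell by 0.42 (adjusted p = 0.0010), whereas PLAU, urokinase, did not pass the test (log2 0.01, adjusted p = 0.91). Among YAP and TAZ targets AMOTL2 fell by 0.36, AJUBA by 0.26 and CCN1 by 0.23, and CCN2 was not called (log2 -0.09, adjusted p = 0.44). The YAP and TAZ count was 4 without Mutant peptide 1 and 5 without Scrambled peptide 2 or 3. The adhesion count was 3, and the protease count 3, without the libraries numbered 2.

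Of 30 TGF-beta and mesenchymal genes 6 fell and 2 rose, where 4.59% of all genes fell and 3.72% rose. FST, follistatin, which binds activins, had 19449, 24010 and 22148 normalised counts with the scrambled and 14717, 16235 and 16541 with the mutant peptide. The groups were apart (log2 -0.46 ± 0.04, adjusted p = 2.0e-05), and INHBA, the activin A subunit that it binds, fell by 0.18 (adjusted p = 0.0014). SPARC, a matrix glycoprotein, went the other way, from 232, 158 and 120 to 380, 307 and 274 (log2 0.95 ± 0.16, adjusted p = 0.0023), and FN1 rose by 0.23. With Mutant peptide 1 left out, 2 of the list rose and 3 fell, and with Scrambled peptide 2 or 3 left out 1 rose and 3 fell.

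Stress lists gave calls in both directions, beside 3.72% of all genes that rose and 4.59% that fell. Of 23 genes of ER stress and folding 3 rose (HSP90B1 by 0.15, PDIA4 by 0.11 and PDIA6 by 0.11) and XBP1, a transcription factor of the unfolded protein response, fell by 0.20. The calls of PDIA4 and PDIA6 were lost in all 6 fits without 1 library, and that of HSP90B1 in 2. PDIA4 was also not called by edgeR (adjusted p = 0.054) or DESeq2 (adjusted p = 0.063). Of 21 heat shock genes only HSPD1, a mitochondrial chaperonin, was called. It rose by 0.12, a call lost in all 6 fits without 1 library. HMOX1, heme oxygenase 1, went from 1159, 977 and 1592 normalised counts to 709, 803 and 814 (log2 -0.65 ± 0.09, adjusted p = 0.00049), with groups apart. Of 22 NRF2 targets SLC7A11 rose and HMOX1, FTH1 and TXNRD1 fell, with a median of -0.01. Without Scrambled peptide 2 neither SLC7A11, FTH1 nor TXNRD1 was called. DDIT3, the stress transcription factor CHOP, fell from 1498, 1380 and 1387 to 963, 955 and 1075 (log2 -0.51 ± 0.06, adjusted p = 9.6e-05). Of 32 genes of the ATF4 list 6 fell and 2 rose, and without Scrambled peptide 2 only 2 of the list were called, both lower. SQSTM1, the autophagy receptor p62, had 14505, 13278 and 13647 with the scrambled and 11601, 10976 and 10868 with the mutant peptide (log2 -0.31 ± 0.03, adjusted p = 4.5e-05). Of 25 autophagy genes 5 fell, and 1 fell without the libraries numbered 2.

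Apoptosis genes gave few calls, where 8.30% of all genes were called (3.72% rose and 4.59% fell). Of 25 pro-apoptotic genes only BIK, a BH3-only protein, was called, and it fell by 0.57 (adjusted p = 0.034) with overlapping groups. The call of BIK was lost in 5 of the 6 fits that each left out 1 library, with adjusted p up to 0.16. Of 14 anti-apoptotic genes BIRC5, survivin, which is also a mitotic protein, rose from 9563, 9030 and 10047 to 11055, 11189 and 11450 (log2 0.24 ± 0.03, adjusted p = 0.00049). BCL2L1, which encodes BCL-XL, fell by 0.20 (adjusted p = 0.0013). Each of 13 called ribosomal protein genes of 77 rose, but by 0.10 to 0.15 on the log2 scale, and 0 of them was called without Scrambled peptide 2. The counts were 0 of 36 for the proteasome and 0 of 28 for translation factors. For nuclear-encoded respiratory chain genes 6 of 34 rose (1 without Scrambled peptide 2 or 3). For interferon-stimulated genes 4 of 27 fell (1 fell without Scrambled peptide 2 or 3). Without all libraries numbered 2, 0 genes of either list were called. Of 18 clock genes NR1D1, the repressor REV-ERB-alpha, fell by 0.50 (adjusted p = 0.00027) and PER1 by 0.36 (adjusted p = 0.0011). Of 18 glycolysis genes PFKM and LDHB rose by 0.14 and 0.13 and SLC16A3 fell by 0.16. The 6 fits without 1 library lost the call of PFKM in 1, of LDHB in 6 and of SLC16A3 in 5. Of 35 genes of ribosome biogenesis NCL and NPM1, nucleolar proteins, rose by 0.11 and 0.12, with both calls lost in all 6 fits. Of 9 aryl hydrocarbon receptor targets AHR and ALDH1A3 fell by 0.19 and 0.23, with calls lost in 5 and 1 of the 6 fits. Of 13 mitochondrially encoded genes MT-ND1 and MT-CYB fell by 0.17 and 0.13, each call lost in 4 of the 6 fits. Of 9 epithelial and mesenchymal markers of PC3 KRT19, VIM and LCN2 fell by 0.18, 0.11 and 1.16. Their calls were lost in 4, 6 and 2 of the 6 fits. No gene was called among 6 metallothionein and zinc genes, 6 endothelial markers, 3 genes listed as lost or silent in PC3 and 2 SNHG host genes.

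**Figure D4:**
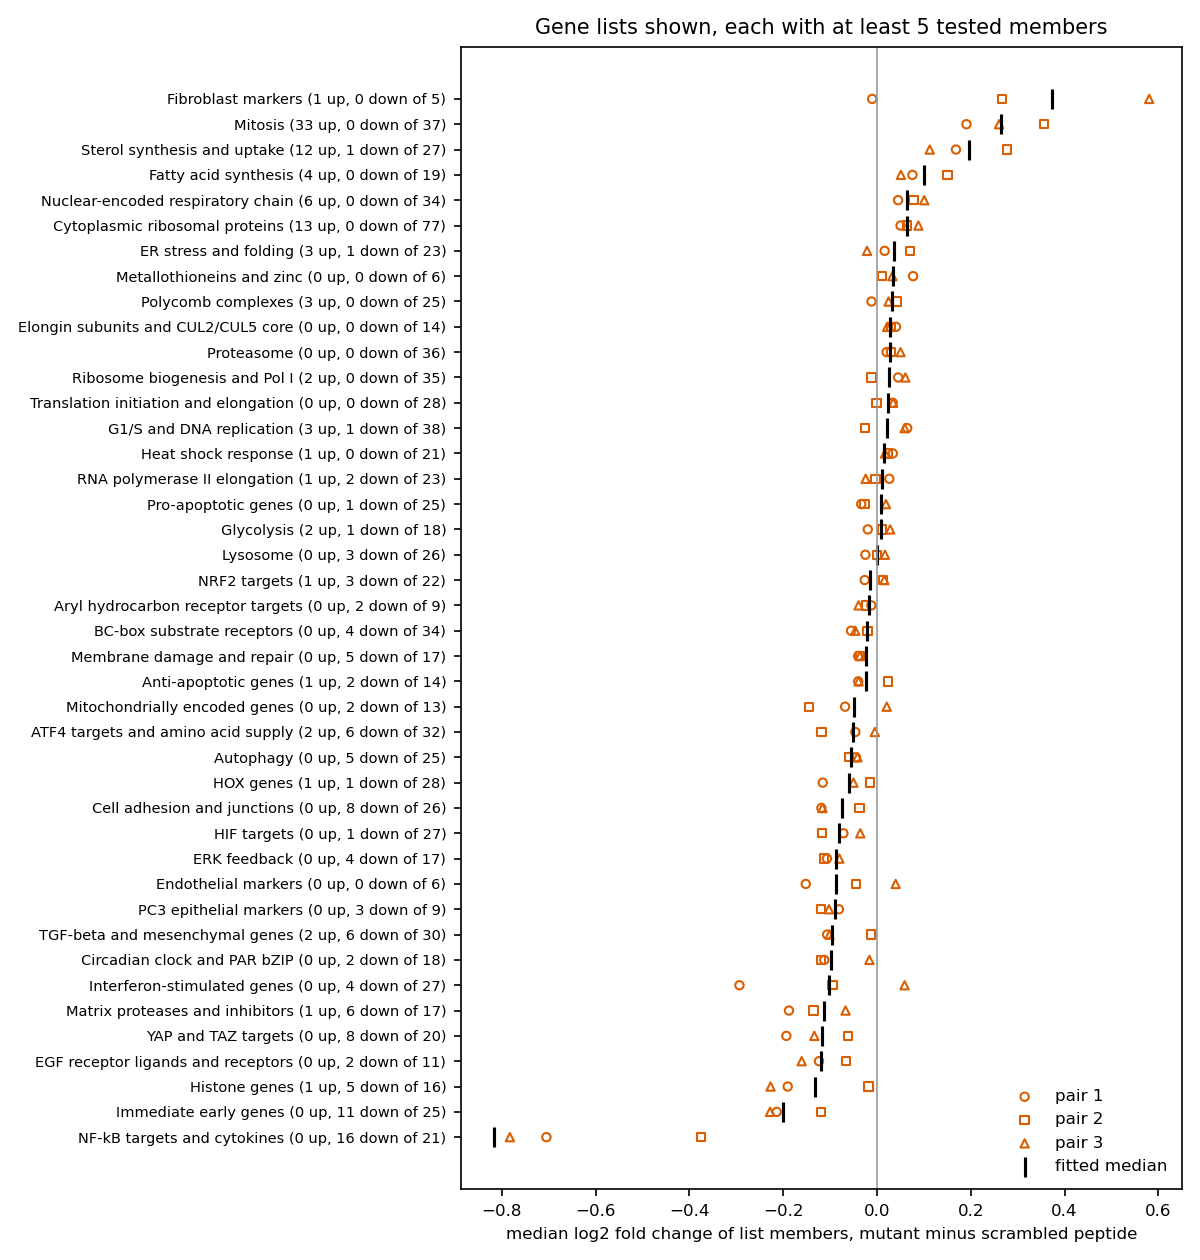
Median log2 fold change of the mutant against the scrambled peptide (x axis) for the gene lists shown, each with at least 5 tested members, within each pair (open symbols) and in the fit (bar), with the numbers called. The NF-kB list has the lowest median (-0.82), and the mitosis list (0.26) has the highest after the 5 tested fibroblast markers.

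The 15 largest increases by the naming rule were in genes of low to moderate count, and most did not survive leaving out a library. COL1A2, a chain of type I collagen, had 60, 76.8 and 36.4 normalised counts with the scrambled and 141, 237 and 66.8 with the mutant peptide. Each pair rose although the groups overlap (log2 1.23 ± 0.19, adjusted p = 0.0011). SPTB, erythroid beta-spectrin, rose by 0.90 (adjusted p = 0.0022). COL1A2, SPARC and SPTB stayed called whichever library was left out, but without all libraries numbered 2 the adjusted p was 0.069 for COL1A2 and 0.071 for SPARC. PIF1, a DNA helicase, rose by 0.62 (adjusted p = 0.0068), but not without Scrambled peptide 2 (adjusted p = 0.080). The others were NLRP3, FCGBP, TCN1, RCAN2, SLC14A1, SPINK5, FCGR2A, LIPG, FRY, LSAMP and PLA2G7, with log2 fold changes between 0.49 and 0.81 and calls that were each lost without Scrambled peptide 2. COL1A2 and SPARC are also made by fibroblasts. Of 10 fibroblast markers 5 had a mean of at least 10, their summed level was 396 to 666 with the scrambled and 431 to 887 with the mutant peptide, and only COL1A2 of the 5 was called. COL1A1 (183 to 349 over the 9 peptide libraries) and PDGFRA (95.8 to 255) were present throughout, as were COL3A1 (23.0 to 44.5) and PDGFRB (12.8 to 32.9) at lower counts. LUM had at most 18.1, POSTN at most 6.11, and DCN, FAP and DPT at most 2.89 counts in any library. The part of fibroblast RNA in these increases was not tested. Leukocyte markers summed to 2520 to 2789 and 1985 to 2095, nearly all of it CD68, which fell by 0.37 (adjusted p = 0.00013), while PTPRC had at most 4.26 counts and MS4A1 was at 0.

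The 15 largest decreases by the naming rule, which needs a mean of at least 50, were, beside inflammatory genes above, ABCC9, HKDC1, FCMR, CEACAM6 and DIO3. ABCC9, a regulatory subunit of potassium channels, went from 159, 66.0 and 151 to 60.1, 35.6 and 57.1 (log2 -1.22 ± 0.17, adjusted p = 0.00067). HKDC1, a hexokinase family member, fell by 0.86 (adjusted p = 0.00067), and DIO3, the enzyme that inactivates thyroid hormone, by 0.72 (adjusted p = 0.0041). CEACAM6, a cell surface adhesion glycoprotein, fell from 1712, 1601 and 1382 to 1245, 741 and 869 (log2 -0.75 ± 0.11, adjusted p = 0.0011). FCMR fell by 0.78 (adjusted p = 0.017), a call that was lost without Mutant peptide 2 or Scrambled peptide 2.

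The WT and mutant peptides were given at the same dose and time, and the direct test between them is described here. WT against scrambled was fitted as well, but shares its control libraries with the main comparison and is not described. The direct test shares the mutant libraries with the main comparison. Noise in those libraries would move a gene in opposite directions in these comparisons, so they are not independent. The direct test called 536 genes (4.09% of those tested), 315 higher and 221 lower with the WT peptide. This count too depends on the block (0 without it, with 898 genes at an unadjusted p under 0.05, and 0 with edgeR, with 883). It was 86 without Mutant peptide 1, 197 without WT peptide 1 and 254 without WT peptide 2. Single genes of this test were not recomputed with libraries left out. Of the 1088 genes called between the mutant and the scrambled peptide, 181 were also called between the WT and the mutant.

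Most mitosis genes were higher again with the WT peptide. Of the 37 mitosis genes, 27 were higher with the WT than with the mutant peptide and none was lower, where 315 of all 13105 genes were higher. PLK1 had 3125, 3072 and 3099 normalised counts with the mutant and 4155, 4111 and 4274 with the WT peptide (log2 0.43 ± 0.04, adjusted p = 0.00023). CCNB1 had 3976, 4120 and 4332 with the mutant and 5676, 5976 and 5797 with the WT peptide (log2 0.49 ± 0.06, adjusted p = 0.00036). CDK1 differed by less and missed the threshold (log2 0.12, 95% interval 0.052 to 0.19, adjusted p = 0.054).

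For the chemokines the direct test found no difference past the threshold. WT minus mutant was 0.09 on the log2 scale for CXCL8 (95% interval -0.16 to 0.33, adjusted p = 0.74). For CXCL3 it was -0.01 (95% interval -0.29 to 0.27, adjusted p = 0.97), and for CXCL2 -0.05 (95% interval -0.43 to 0.33, adjusted p = 0.91). Other genes of the inflammatory list did differ, with the mutant the lower for IL1A (log2 0.74 ± 0.18, adjusted p = 0.036) and RELB (log2 0.47 ± 0.12, adjusted p = 0.047), and the WT the lower for IL1B (log2 -0.21 ± 0.05, adjusted p = 0.025). For sterol synthesis, SQLE differed by -0.06 (95% interval -0.16 to 0.043, adjusted p = 0.54). Of the sterol list's 27 members 3 were lower and 0 higher with the WT peptide, where 221 of all 13105 genes were lower. ABCG1 was among the 3, with 679, 485 and 702 under the mutant and 426, 384 and 443 under the WT peptide (log2 -0.56 ± 0.07, adjusted p = 0.00065).

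Several stress genes that fell with the mutant peptide were higher with the WT than with the mutant peptide. Because the same mutant libraries enter both comparisons, genes picked for low mutant values lean towards this outcome. HMOX1 had 709, 803 and 814 normalised counts with the mutant and 1264, 1168 and 1553 with the WT peptide, without overlap (log2 0.77 ± 0.09, adjusted p = 0.00031). ATF3 differed by 0.40 ± 0.07 (adjusted p = 0.0078), DDIT3 by 0.31 ± 0.06 (adjusted p = 0.0065) and SQSTM1 by 0.24 ± 0.03 (adjusted p = 0.00051). The WT means lay between those of the mutant and the scrambled libraries for ATF3, DDIT3 and SQSTM1, and above both for HMOX1. Of 13 mitochondrially encoded genes 7 were higher with the WT peptide, and of 27 HIF targets 5 were lower. Of all 13105 genes 315 were higher and 221 lower.

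The largest differences between the 2 BC-box peptides were in part in genes not called between the mutant and the scrambled peptide. CYP1A1, a monooxygenase induced through the aryl hydrocarbon receptor, had 39, 26.6 and 41.4 counts with the scrambled, 42.8, 47.1 and 42.6 with the mutant and 123, 96.9 and 131 with the WT peptide (WT minus mutant log2 1.38 ± 0.18, adjusted p = 0.00065). Next by size were HMOX1, IL1A, UBE2S (0.72), a ubiquitin-conjugating enzyme of the anaphase-promoting complex, and ABCC9 (0.66). On the lower side SLC14A1, a urea transporter, was called in both tests, which share the mutant libraries. It rose by 0.64 with the mutant peptide and was lower by 0.98 with the WT than with the mutant peptide (adjusted p = 0.0094). Its call for the mutant against the scrambled peptide was lost in 5 of the 6 fits without 1 library. APOBEC3G, a cytidine deaminase that restricts retroviruses, differed by -0.85 (adjusted p = 0.00040), with mutant minus scrambled at -0.08 (adjusted p = 0.70). SLAMF9, DEPP1 and SLC26A5 were lower with the WT peptide by 0.73, 0.69 and 0.68.

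The knockdowns of Elongin B and Elongin C have their own controls and share no library with the peptide comparison, but their values were normalised in a separate table and their medium held 10% FCS, against 2.5% in the peptide groups. In them 36.3% (EloB KD) and 57.0% (EloC KD) of genes were called, and the targeted genes were low: ELOB fell by 2.82 on the log2 scale in EloB KD, and ELOC fell by 3.12 in EloC KD. Of 598 genes that fell with the mutant peptide and were tested in both tables, 340 (56.9%) rose in EloC KD, where 28.7% of all genes rose, and 80 (13.4%) fell, where 29.2% fell. They made up 9.06% of the genes that rose and 2.10% of those that fell in EloC KD. Of the 487 genes that rose with the mutant peptide, 215 (44.1%) fell in EloC KD and 53 (10.9%) rose, which are 5.63% and 1.41% of the EloC KD calls in those directions.

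In EloB KD both directions were closer to the background for genes that fell with the mutant peptide. Of those, 131 (21.9%) rose and 137 (22.9%) fell, beside 16.9% and 19.6% of all genes, and they made up 5.93% and 5.35% of the EloB KD calls. Of genes that rose with the mutant peptide, 143 (29.4%) fell in EloB KD and 26 (5.34%) rose, which are 5.59% and 1.18% of its calls. Called in all 3 comparisons, 211 genes had the direction of the mutant peptide opposite to both knockdowns and 51 had the same direction in all. No share over all genes was computed for these counts, so nothing is read from them.

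CXCL3 (log2 1.53 in EloB KD, 2.77 in EloC KD), CXCL2 (1.09 and 2.98) and TRAF1 (0.999 and 2.57) rose in both knockdowns and fell with the mutant peptide. ABCC9 did so as well (0.80 and 3.92). TNFAIP3 (1.09 and 3.29), CPA4 (2.02 and 4.14) and LAMB3 (1.85 and 1.94) showed the same reversal. CXCL8 was lower in EloB KD (-1.16) and higher in EloC KD (0.63). The sterol list had 14 lower calls of 27 in EloB KD and 19 in EloC KD, with 1 higher in each. The mitosis list of 37 genes had 0 higher and 1 lower call in EloB KD and 1 higher and 5 lower in EloC KD. Of all genes tested in both experiments, 16.9% were called higher and 19.6% lower in EloB KD, and 28.7% and 29.2% in EloC KD. Beside these shares the sterol list held more lower calls in each knockdown, and the mitosis list fewer calls in either direction. Genes lower in all 3 comparisons included CEACAM6 (-1.04 and -0.38 in the knockdowns), CEACAM5 (-1.19 and -1.61), BIK (-0.62 and -0.49), LXN (-1.81 and -2.91) and SCNN1G (-1.94 and -1.72), the last a subunit of the epithelial sodium channel. Of these, CEACAM6 kept its call for the mutant peptide whichever library was left out, and the other 4 lost theirs in 2 to 5 of the 6 fits. COL1A2 fell in both knockdowns (-0.83 and -0.70) and rose with the mutant peptide.

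**Figure D5:**
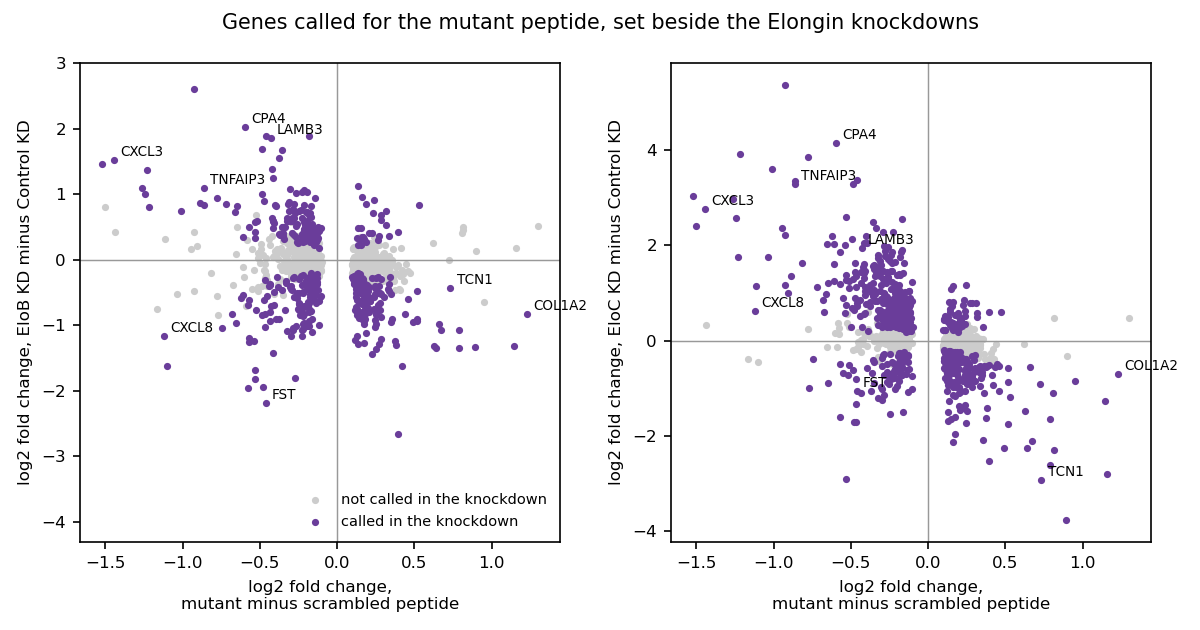
Log2 fold change with the mutant peptide (x axis) against that in EloB KD (left, y axis) and EloC KD (right, y axis) for the genes called for the mutant peptide and tested in both tables, with genes called in the knockdown in purple. In EloC KD 340 of the 598 genes on the left of 0 were called higher; in EloB KD 131 were.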

How the data were processed

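PC3 RNA was extracted with the RNeasy Mini system with on-column DNase and libraries were made with the TruSeq Stranded mRNA kit, as the labels state. The submitters' processing notes name the build hg38, featureCounts and DESeq2. The aligner and the versions are not given in the sources used here. The values used are a signal per gene and library, namely read counts that the authors had divided by DESeq2 size factors and deposited as 1 table for the peptides and 1 for the knockdowns. Dividing by each library's smallest value gave whole reads within a tolerance of 0.05 reads. Counts do not correct for gene length, so levels were not ranked between genes except where a count is named. The authors' own comparison tables were not used here.

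All 9 peptide libraries entered 1 fit in limma 3.58.1 (R 4.3.3) on log2(normalised count + 1), with an intensity trend, group means and the replicate number as a block. Genes needed a mean normalised count of 10. Tests were 2-sided, p-values were adjusted by Benjamini-Hochberg over the 13105 genes, and the threshold was 0.05. Errors of log2 values are standard errors of the fit with 3 libraries per group. An exact permutation test of 3 against 3 cannot go below p = 0.1. The knockdown table was fitted in the same way. Tests with edgeR 4.0.16 and DESeq2 1.42.0 on the recovered reads, other scalings, filters and pseudocounts and left-out libraries are alternatives.

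Pairing by replicate number comes from the labels, which do not say what a number marks. It was checked by correlating deviations from group means: the 9 same-number pairs of libraries gave 0.254 to 0.715, all other pairs -0.546 to 0.336, and 8 of 9 libraries had their highest mean correlation with the libraries of their own number. No 2 libraries of a group agreed within sampling noise. Counts were also simulated from the scrambled means, with replicate effects and a spread taken from these libraries. The block fit recovered 82% of genes changed by 0.5 on the log2 scale and 95% of those changed by 1. It made 11 false calls. Without the block the fit recovered 53% and 89%, with 0 false calls. Because replicate effects were built in, the simulation cannot decide whether the block is right for these libraries.

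The comparison and the 46 gene lists were chosen with earlier results of these data known. Named genes are ELOA, ELOB and ELOC, the 15 highest and 15 lowest called log2 fold changes (mean of at least 50, same direction in all 3 pairs), up to 4 members of smallest adjusted p per list, up to 5 genes in the same and 5 in opposite directions in both knockdowns, and the 5 highest and 5 lowest between WT and mutant peptide. Other list members named were chosen after their values were seen. Promoter sequences are from RefSeq (GRCh38.p14), which had an entry for 10551 of the tested genes. A few genes and 1 of the gene lists are not reported here.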

Additional observations from a re-analysis of the deposited data

How the results depend on the processing

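The count of 1088 genes for the mutant against the scrambled peptide was 0 with no replicate block (1142 genes at an unadjusted p under 0.05) and 0 with edgeR and no replicate block (1123), so no call made with the pairing by replicate number was made without it. It was 1 with limma without the intensity trend (2513 at an unadjusted p under 0.05), where the cause was not tested. At an adjusted p threshold of 0.01 it was 432 and at 0.1 it was 1707. With the block it was 1116 with edgeR and 766 with DESeq2. Leaving out a replicate number gave 209 to 814 and leaving out 1 library 342 to 853. The direct count between WT and mutant peptide (536) was 0 without the block (898), 0 with edgeR without it (883), 0 without the intensity trend (2154), 346 with only the 6 libraries compared, 155 at 0.01 and 1097 at 0.1. Leaving out a replicate number gave 125 to 658, and leaving out 1 library 86 to 571. The share of mutant calls that were opposite in EloC KD (51.2%) was 100% of the 1 gene called without the trend, 54.9% at a threshold of 0.01 and 50.2% to 58.4% without a replicate number (49.1% to 56.6% without 1 library). It was 42.5% with a knockdown fit without the replicate block, an alternative chosen after seeing the data. For EloB KD (25.3%) the values were 100%, 23.4% to 26.0% without a replicate number, 22.3% to 26.4% without 1 library and 14.5% with the knockdown fit without the block. Of 147 called named genes, 143 were called with TMM scaling, 134 with quantile normalisation, 146 with edgeR and 118 with DESeq2, 66 whichever library was left out, and 46 also whichever replicate number was left out. None of these 147 changed direction in any alternative run. Genes with few counts, such as EGR1, carry large counting error.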

Other observations

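Other lists gave small counts, beside 3.72% of all genes that rose and 4.59% that fell. Of 25 Polycomb genes 3 rose with the mutant peptide, PHF19 by 0.22, RBBP7 by 0.14 and EZH2, the H3K27 methyltransferase, by 0.14 on the log2 scale. PHF19 had 2957, 2879 and 3224 normalised counts with the scrambled and 3360, 3668 and 3535 with the mutant peptide (adjusted p = 0.0041 in limma) and was called whichever library was left out, but not without all libraries numbered 2. RBBP7 and EZH2 each lost the call in 4 of the 6 fits without 1 library: RBBP7 without replicate 1 or 2 of either peptide, and EZH2 without replicate 1 or 3 of either. Of 17 genes of membrane damage and repair 5 fell. Among them were the annexins ANXA1 (by 0.12) and ANXA2 (by 0.15) and the calcium-binding protein S100A11 (by 0.23). Of that list 1 was called without Scrambled peptide 2 and 0 without all libraries numbered 2. Of 26 lysosome genes 3 fell, including TFEB, a factor that activates lysosomal genes, by 0.44, and CTSD, a lysosomal protease, by 0.24. The lysosome count was 0 without all libraries numbered 2. Of 23 genes of RNA polymerase II elongation, the process the Elongin complex was named for, ELL fell by 0.29 (adjusted p = 0.0019 in limma) and was called whichever library was left out, while ELL2 fell by 0.14 and SUPT16H rose by 0.10, and these 2 calls were each lost whichever library was left out. Of 11 genes of EGF receptor ligands and receptors, TGFA fell by 0.24 and the receptor inhibitor ERRFI1 by 0.22. Of 28 HOX genes HOXB13, a prostate lineage factor, rose by 0.13 and HOXB9 fell by 0.27. HOXB13 lost its call in 4 and HOXB9 in 6 of the 6 fits without 1 library. ANXA1, ANXA2 and TFEB each lost theirs in 5, TGFA in 3 and S100A11 in 1.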
